A study of Mus musculus with 12 samples.

Results

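The Ifi200 genes and Aim2 form a cluster of interferon-inducible genes on mouse chromosome 1, and 10 of them were followed by gene identifier in the raw counts of 12 libraries, namely Ifi202b, Ifi203, Ifi204, Ifi205, Ifi207, Ifi209, Ifi211, Ifi213, Mndal and Aim2. Each of the 10 symbols matched 1 identifier, out of 55357 identifiers listed in both the liver table and the cell table. The family was chosen by the rise of Ifi202b in the cells, one of the largest there, so the values of the members in the cell comparison are given as a description that supports nothing, and the liver comparison, which was not used for the choice, was tested. The RNA came from livers of wild-type C57BL6/J male mice aged 8 to 9 weeks and from wild-type RAW264.7, a macrophage line of BALB/c mouse origin. All mice were gavaged daily for 7 days, with 2.5% Tween-80 as the vehicle or with the plant coumarin esculetin at 90 mg/kg/day, and all ate control chow (10% kcal from fat) for 4 days before a 3-day high-fat diet (60% kcal). Every RAW264.7 culture received oxidized low-density lipoprotein labelled with the dye DIL (oxLDL, 25 µg/mL) over 24 hours, together with the solvent DMSO or with esculetin at 40 µg/mL. Each of the 4 groups held 3 libraries. The study states that a liver sample contained a pair of mice, so a liver library stands for a pool, and nothing says whether the libraries of the line came from separate cultures, so that the spread between them may be technical.

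Proteins of this family carry a HIN domain, which binds double-stranded DNA or, in some members, partner proteins, and most also carry a pyrin domain, which joins other proteins of its kind. Aim2 is the cytosolic DNA sensor that assembles an inflammasome through the adaptor Pycard (ASC) and caspase-1, and leads to release of interleukin-1 beta and interleukin-18 and to cell death through gasdermin D. Ifi204 has been described as a DNA sensor upstream of Sting1, and Ifi202b, which lacks the pyrin domain, is known as an inhibitor of Aim2. The genes are known for their induction by interferon in macrophages. C57BL/6J mice are known to carry a deletion upstream of Ifi202b that takes its usual promoter and first exon.

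The liver libraries held 14659876 to 20346460 counts and those of the line 13752842 to 20001959. Levels are given as CPM, counts scaled to an effective library size, on which 3 counts in a library stood for 0.148 to 0.195 in the liver and for 0.146 to 0.220 in the line. The hepatocyte markers summed to 103030 to 131662 CPM in the livers and to at most 0.146 CPM in the cells, and none of the 7 macrophage markers was at 0 in the cells. Liver vehicle replicate 1 stood apart from the other vehicle libraries, with a TMM scaling factor of 1.11, and it held the highest vehicle CPM for 6 of the 9 genes that had any liver count. Liver values without it are given for the genes and sums that moved most.

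The 10 genes lie within 681012 bases of chromosome 1 of the build GRCm39, an interval that holds 22 genes of the tables. Aim2 (ENSMUSG00000037860) lies at chr1:173178445-173293930 on the plus strand and Ifi202b (ENSMUSG00000026535) at chr1:173790134-173810414 on the minus strand. Ifi209 (ENSMUSG00000043263), at chr1:173458380-173475494, is the other member on the plus strand, and the other 7 genes lie on the minus strand between Ifi213, which starts at base 173426881, and Ifi205, which starts at base 173859456.

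A short element upstream of these genes was searched because interferon acts through it: the interferon-stimulated response element (ISRE), written here as GAAANNGAAA, is the letter pattern to which the interferon-activated complex with Stat2 and Irf9 binds. It was looked for on both strands of the 300 bases from 250 before to 50 after the annotated start of the canonical transcript. It stood in 7 of the 10 promoters, against 829 of 21614 promoters of protein-coding genes (3.84%). The windows of 40 bases around it are shown 5′ to 3′ in the sense of the gene, read from GRCm39, with the 10 letters of the match in capitals. Ifi209, which has no exact match, is shown with its nearest letters, which depart from the pattern by G1T, counted from 1 at its first letter (the pattern's base first).
Ifi213, chr1:173426887-173426926, minus strand: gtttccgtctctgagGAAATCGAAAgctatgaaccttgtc
Ifi209, chr1:173458331-173458370, plus strand: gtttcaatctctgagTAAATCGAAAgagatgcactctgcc
Ifi207, chr1:173569392-173569431, minus strand: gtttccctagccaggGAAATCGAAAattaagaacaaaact
Ifi204, chr1:173594622-173594661, minus strand: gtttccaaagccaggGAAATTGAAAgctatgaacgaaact
Ifi211, chr1:173740625-173740664, minus strand: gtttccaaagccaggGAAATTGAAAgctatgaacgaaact
Ifi205, chr1:173859431-173859470, minus strand: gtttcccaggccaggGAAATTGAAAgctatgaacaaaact
Mndal, chr1:173707765-173707804, minus strand: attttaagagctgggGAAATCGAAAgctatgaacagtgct
Ifi203, chr1:173770069-173770108, minus strand: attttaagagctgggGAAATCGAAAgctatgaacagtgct
The windows of Ifi204 and Ifi211 were identical, as were those of Mndal and Ifi203, and the window of Ifi205 departed from that of Ifi204 at 3 of 40 positions. The promoters of the members are thus not independent of each other, and their share was not tested against that of all promoters. In 6 of the 7 genes the match began 30 to 57 bases before the start, and in Ifi205 it began 1 base after it. No exact match stood in the promoters of Ifi209, Ifi202b and Aim2. With 1 differing letter allowed, 9 of the 10 promoters matched, all but that of Aim2, against 36.1% of all promoters. The other patterns searched on both strands were rarer among the members, with TTCNNNGAA (the GAS element, the other letter pattern of interferon-induced genes) in 1 of 10 against 8.85% of all promoters, and TTGCNNAA (C/EBP) in 1 of 10 against 10.7%. The GAS letters stood upstream of the annotated start of Ifi202b, where the match reads alike on both strands, and the C/EBP letters in that of Ifi213. The 250 bases upstream of Ifi202b are shown because Ifi202b led the order of levels in the esculetin cells and had no count in the liver, with the GAS letters in capitals.
Ifi202b, chr1:173810415-173810664, minus strand: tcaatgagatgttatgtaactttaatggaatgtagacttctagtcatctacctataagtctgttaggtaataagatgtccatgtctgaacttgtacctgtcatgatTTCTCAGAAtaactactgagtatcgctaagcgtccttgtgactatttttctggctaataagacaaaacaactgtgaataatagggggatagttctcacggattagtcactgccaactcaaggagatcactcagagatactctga
This is the sequence of the reference strain C57BL/6J, which carries the deletion named above, so it need not be the promoter used elsewhere, and the count of 10 promoters includes it on that footing. The bases at this place in RAW264.7 cells were not read here. Neither the presence nor the lack of these letters was tested against binding of any factor.

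**Figure D1:**
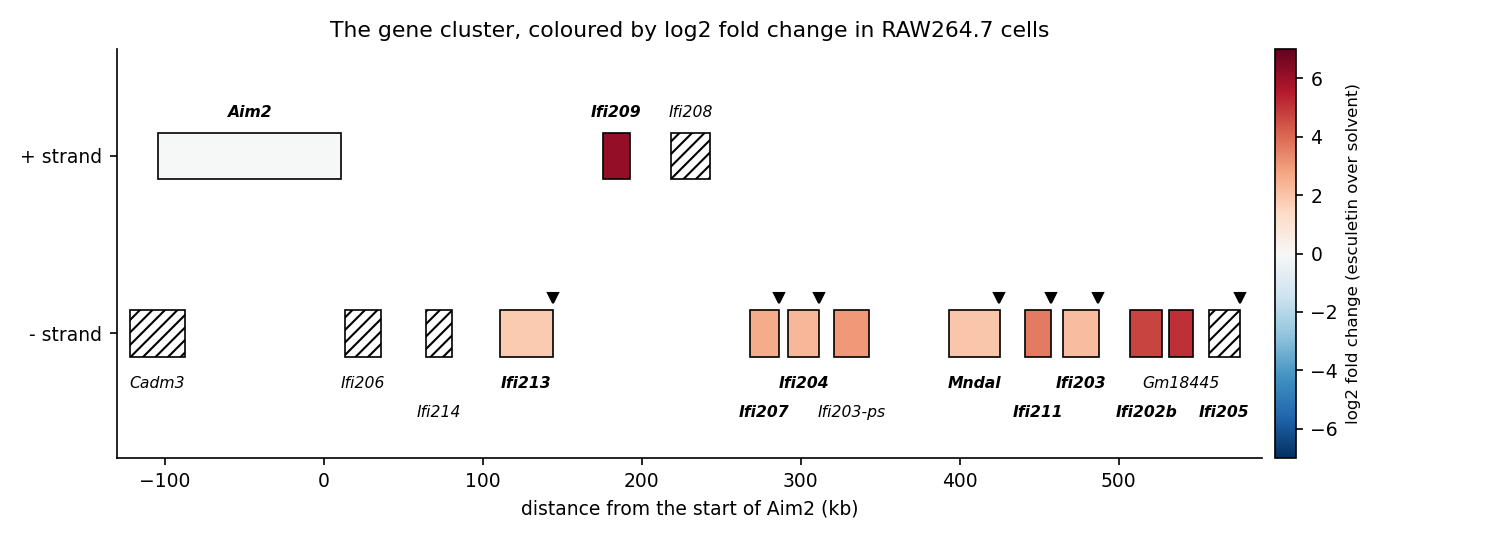
Genes of the cluster along chromosome 1, with the distance from the canonical start of Aim2 in kb on the x axis and the strand on the y axis, coloured by the log2 fold change of esculetin over solvent in RAW264.7 cells. Hatched genes were not fitted there, bold names are the 10 genes, triangles mark the starts with an exact ISRE match, and very short genes are left out. Aim2 at the left end was near 0, and the fitted members to its right were all above 1.85.

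In the RAW264.7 cells, 9 of the 10 genes had all 3 esculetin libraries above all 3 solvent libraries, and Aim2 was the exception. Such a separation was seen in 31% of the 13277 fitted genes. Of the 9 genes with enough counts to be fitted, 8 passed the edgeR threshold in the higher direction (adjusted p-value under 0.05), as did 28.7% of all fitted genes, and 57.7% passed it in either direction. This count is no test of the family and nothing is read from it, since these libraries served to choose it. The median log2 fold change of the 9 fitted genes was 2.34, beside a median of -0.013 over all fitted genes.

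Ifi202b, the HIN protein without a pyrin domain, had 4.98, 2.96 and 2.38 CPM in the solvent libraries and 64.0, 104 and 109 CPM in the esculetin libraries. All esculetin libraries lay far above all solvent libraries, with replicate 1 the lowest of them. The log2 fold change was 4.75 ± 0.27 (SE, n = 3 per group), 27.0-fold, and by size of the rise Ifi202b stood at place 28 of 13277 fitted genes. None of its exon stretches of 150 or of 75 bases occurs elsewhere on chromosome 1 of the reference. The search took exact matches within exons of the reference strain. Whether reads of the line, which is of another strain, can be told apart from those of other copies was not tested.

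Ifi207, a pyrin-and-HIN protein, had 30.2, 25.8 and 23.9 CPM with solvent and 130, 178 and 171 with esculetin, a log2 fold change of 2.59 ± 0.14. Ifi203 had 25.8, 24.8 and 21.5 CPM with solvent and 95.4, 124 and 106 with esculetin (log2 fold change 2.17 ± 0.12). Mndal had 27.8, 22.3 and 24.8 CPM with solvent and 91.6, 108 and 84.0 with esculetin (log2 fold change 1.92 ± 0.12). These 3 genes held at least 21.5 CPM in every library of the line, and the ranges of their groups lay far apart. Ifi213 had 13.7, 10.1 and 9.58 CPM against 36.2, 48.0 and 36.2, a log2 fold change of 1.85 ± 0.17, and Ifi204, the sensor upstream of Sting1, had 2.49, 2.04 and 1.75 CPM against 7.83, 11.9 and 12.0, a log2 fold change of 2.34 ± 0.23.

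The other 3 risers were scarce. Ifi211 held 3, 1 and 5 counts in the solvent libraries and 10, 24 and 63 in the esculetin libraries, with a log2 fold change of 3.65 ± 0.68, which was 2.90 without esculetin replicate 3 and 4.16 without solvent replicate 3, and its spread between esculetin libraries was the widest of the 10 genes relative to the mean (1.96 ± 1.42 CPM, SD). Ifi209 held 0, 0 and 1 counts against 11, 24 and 48, a ratio of the summed CPM of 105 with a 95% counting interval of 18.3 to 4190, and without solvent replicate 3 the solvent libraries held 0 counts. Ifi205 held 0, 1 and 1 counts against 10, 6 and 7, a ratio of 14.5 with an interval of 3.59 to 127. These intervals are exact Clopper-Pearson intervals that cover counting error only, and what both genes show is a level near the detection limit without esculetin and above it with esculetin.

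Aim2, the sensor itself, had 103, 88.9 and 83.6 CPM in the solvent libraries and 106, 89.6 and 74.6 in the esculetin libraries. The groups overlapped throughout, and the log2 fold change was -0.028 ± 0.127. It did not pass the threshold under the main settings or any alternative that was run. Aim2 shares no exon stretch of 75 bases with another place on chromosome 1.

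**Figure D2:**
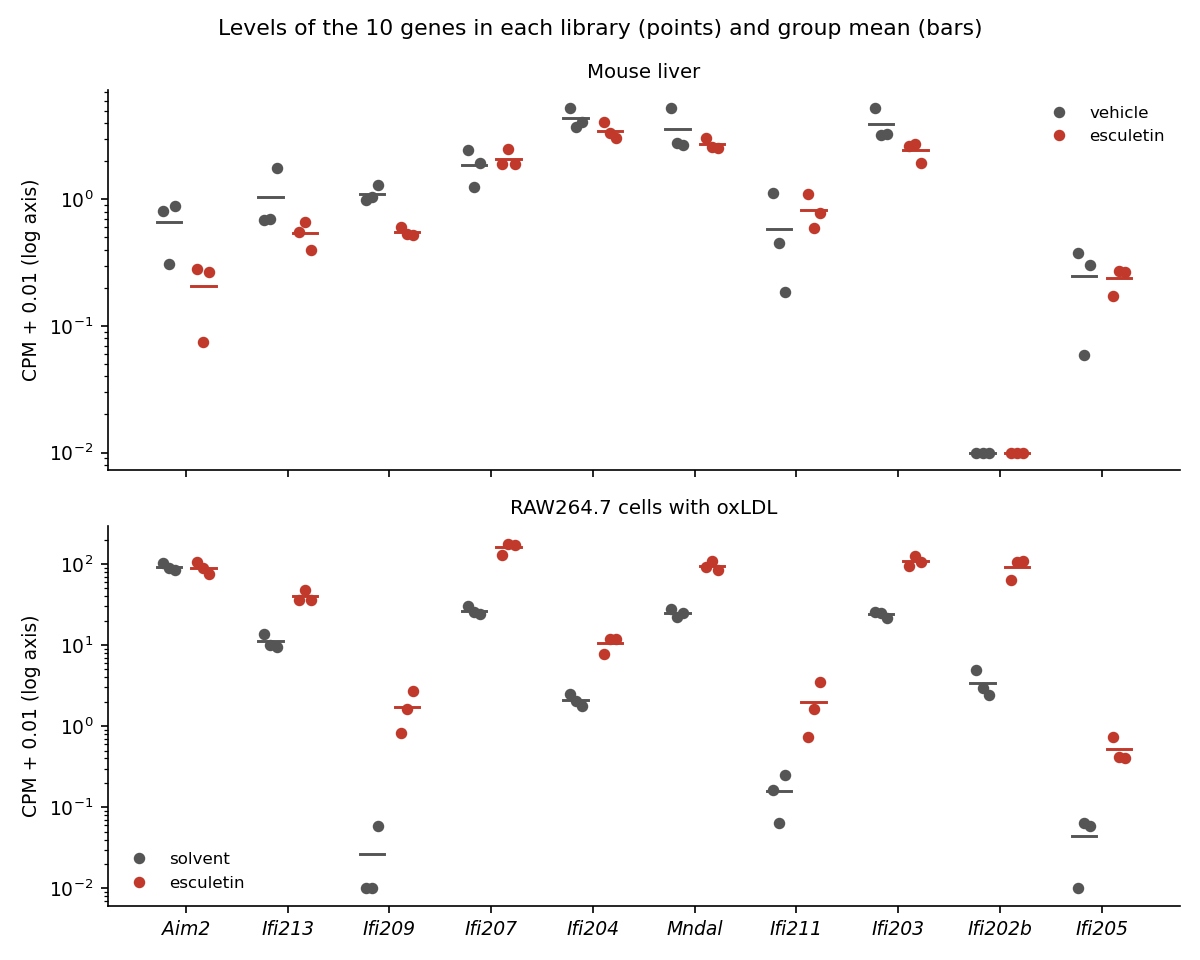
CPM of the 10 genes in each library on a log axis (0.01 added so that 0 can be drawn), in the order of the genes on the chromosome, with the liver above and RAW264.7 cells below. Points are libraries, bars are means of 3, grey is vehicle or solvent and red is esculetin. In the cells 9 genes are separated and Aim2 overlaps, and in the liver all values are at or under 5.28 CPM with Ifi202b at 0 in all 6 libraries.

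Of the 7 macrophage markers, 6 were above 0 in log2 fold change in the same libraries and 1 below (median 0.48). Their sum ran from 2323 to 2489 CPM with solvent and from 5039 to 7597 with esculetin. Of the 7, 5 were called higher, beside 28.7% of all fitted genes. Among them were Lyz2 (638 ± 41.8 to 3496 ± 1090 CPM) and Csf1r (848 ± 49.7 to 1654 ± 125). The summed dendritic cell markers ran from 4.03 to 4.25 CPM against 12.6 to 24.4. Those of monocytes and neutrophils ran from 0.108 to 0.292 against 2.42 to 4.09, and in each of these 2 lists 1 of 5 markers was fitted. Kupffer cell markers went the other way, from 2.02 to 2.21 CPM against 0.293 to 1.02, and the 1 fitted marker was called lower. The part of these cell markers in the higher values of the members was not tested.

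Among the esculetin libraries of the line, replicate 1 was the lowest for 7 of the 10 genes and replicate 3 for the other 3, and replicate 2 for none. Summed over the 10 genes, the line held 208, 177 and 168 CPM with solvent and 534, 668 and 600 with esculetin, a ratio of 3.26. The sum does not depend on how reads were divided among the 10 genes, but it does depend on reads shared with other genes or dropped. Without Ifi202b the ratio was 2.81. Over the 21 listed genes of the interval other than Cadm3 the ratio was 3.35.

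Levels can be compared between genes only per length of exon, as RPKM, the CPM per kilobase of exon. In the solvent cells Aim2 led with 14.0 ± 1.52 RPKM (SD, n = 3), followed by Ifi207 with 7.29 ± 0.88, Mndal with 6.08 ± 0.67, Ifi203 with 3.17 ± 0.30, Ifi202b with 1.91 ± 0.76 and Ifi213 with 1.21 ± 0.24. Ifi207 overlapped with Mndal, and Ifi202b with Ifi213, while the other neighbours among these 6 genes did not overlap. In the esculetin cells Ifi202b led with 51.4 ± 13.8 RPKM and overlapped with Ifi207 at 43.8 ± 7.08, followed by Mndal at 23.1 ± 3.00 and Ifi203 at 14.3 ± 1.91, and Aim2, at rank 5, had 13.7 ± 2.41, overlapping with Ifi203. The order depends on the length used. With the longest transcript in place of the union of exons, Mndal stood above Ifi207 in the solvent cells (11.6 against 7.29 RPKM) behind Aim2 at 26.5, and in the esculetin cells Aim2 stood above Ifi203 (21.3), with Mndal (43.9) and Ifi207 (43.8) nearly level. Taken from the group means, the share of the summed member RPKM held by Ifi202b went from 5.57% to 33.1% and that of Aim2 from 40.7% to 8.84%. Ifi204 stood at 0.572 ± 0.101 RPKM with solvent and 2.88 ± 0.646 with esculetin, and Ifi211, Ifi209 and Ifi205 were at or under 1.04 RPKM in both groups.

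**Figure D3:**
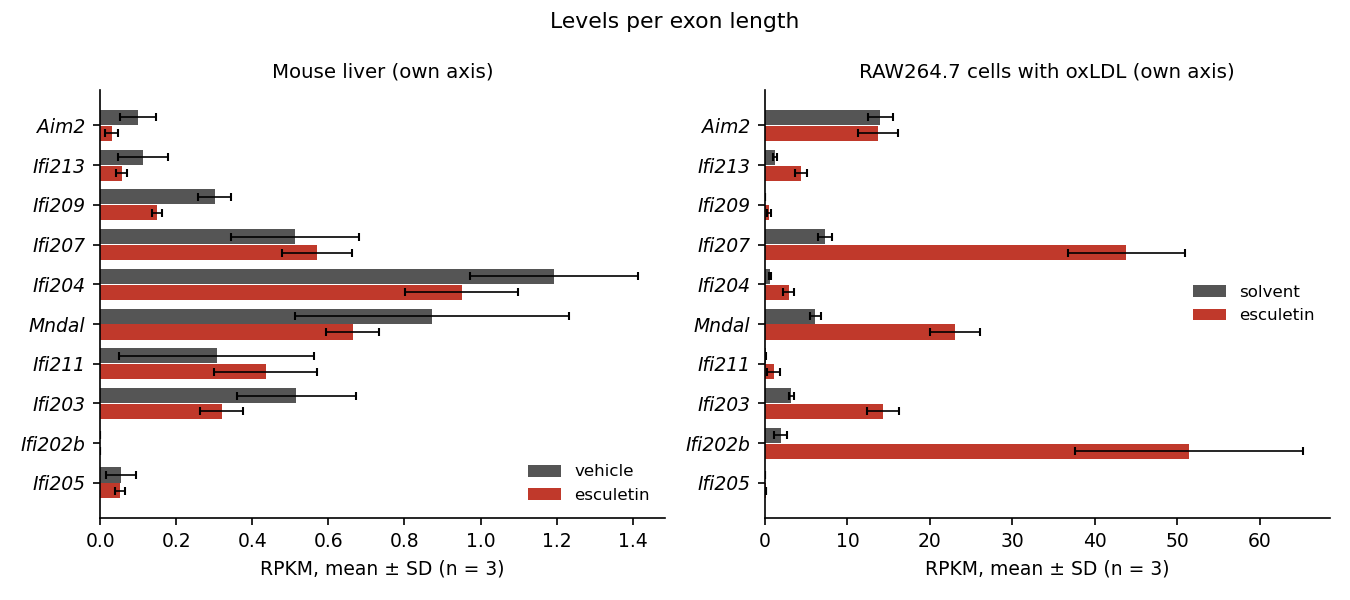
Level per exon length (RPKM, mean ± SD of 3 libraries) of the 10 genes in the liver (left) and in RAW264.7 cells (right), each panel with its own axis from 0. In the cells Aim2 is the longest grey bar and Ifi202b and Ifi207 are the longest red bars, and in the liver Ifi204 and Mndal lead in both groups.

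In the liver all 10 genes were low. Ifi202b had no count in any of the 6 libraries, which allows at most 0.0559 CPM over the vehicle libraries and 0.0610 CPM over the esculetin libraries (3 counts over each group), and no fold is given. The mice and the line differ in strain as well as in tissue, so the lack of Ifi202b counts in the liver and their presence in the line cannot be assigned to the one or the other: strain and tissue cannot be told apart. Of the other genes, 7 passed the filter on low counts, and none of them was called (edgeR, 0 of 7 at an adjusted p-value under 0.05, beside 0.0859% of 12813 fitted genes). DESeq2 and limma-voom called none of them either. The looser criterion of the study's methods, an unadjusted p-value with a minimum fold change, was met by 2 of the 7 on limma-voom, beside 3.89% of all fitted genes. An unadjusted p-value under 0.05 was found for 2 of 7 (Ifi203 and Ifi209), beside 8.37% of all fitted genes. The median log2 fold change of the 7 genes was -0.38, beside -0.020 over all fitted genes, and 5 of the 7 were below 0, beside 53.5% of all fitted genes.

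In 3 of the 7 fitted genes every esculetin liver library lay below every vehicle library, which was so in 7.95% of all fitted genes, and the unfitted Aim2 showed the same. In none of the 10 genes did every esculetin library lie above. Ifi209 had 0.983, 1.04 and 1.28 CPM in the vehicle livers and 0.599, 0.519 and 0.518 in the esculetin livers. These are 8 to 22 counts a library, and the log2 fold change was -0.997 ± 0.390 (edgeR, adjusted p = 0.52). Ifi203 had 5.28, 3.21 and 3.26 CPM against 2.62, 2.73 and 1.94, a log2 fold change of -0.68 ± 0.28 (edgeR, adjusted p = 0.55). Its highest value was that of vehicle replicate 1, and without that library the log2 fold change was -0.41 ± 0.26 (edgeR, adjusted p = 0.70), with the unadjusted p-value no longer under 0.05. Ifi213 had 0.676, 0.691 and 1.75 CPM against 0.545, 0.649 and 0.388 (log2 fold change -0.96 ± 0.50, edgeR, adjusted p = 0.64), and the gap between its groups was small except in vehicle replicate 3, without which the log2 fold change was -0.39.

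The fourth was Aim2, with 13, 6 and 15 counts in the vehicle livers and 5, 1 and 4 in the esculetin livers, or 0.656 ± 0.314 CPM against 0.199 ± 0.116 (SD, n = 3). It was too low for the filter. When all genes were fitted its log2 fold change was -1.66 ± 0.73 (edgeR, adjusted p = 0.46). The direction of Aim2 in the liver thus rests on 34 counts over the vehicle libraries and 10 over the esculetin libraries.

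The other genes overlapped between the groups. Ifi204, the member with the highest level per length in the liver, had 5.28, 3.75 and 4.08 CPM in the vehicle livers and 4.09, 3.31 and 3.04 in the esculetin livers (log2 fold change -0.32 ± 0.24, edgeR, adjusted p = 0.74; -0.16 ± 0.23 without vehicle replicate 1). Mndal had 5.28, 2.76 and 2.68 CPM against 3.05, 2.60 and 2.52 (log2 fold change -0.38 ± 0.30), and without vehicle replicate 1 its log2 fold change was 0.0086 ± 0.253. Ifi207 had 2.46, 1.23 and 1.92 CPM against 1.91, 2.47 and 1.88 (log2 fold change 0.16 ± 0.33), and Ifi211 had 1.11, 0.444 and 0.175 CPM against 1.09, 0.584 and 0.776 (log2 fold change 0.54 ± 0.57). Ifi211 was the gene that moved most without vehicle replicate 1, to 1.36 ± 0.58 (edgeR, adjusted p = 0.51). Without that library the genes at an unadjusted p-value under 0.05 were Ifi209, Ifi211 and Ifi213, with Ifi211 higher and the others lower. Ifi205 held 1 to 6 counts in each liver library.

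Summed over the 10 genes, the vehicle livers held 22.2, 13.5 and 16.3 CPM and the esculetin livers 14.3, 13.2 and 11.6, a ratio of 0.752 with overlapping groups. On the log2 scale this was -0.41, and -0.19 without vehicle replicate 1. In RPKM, Ifi204 led in both liver groups, with 1.19 ± 0.220 in the vehicle livers and 0.95 ± 0.148 in the esculetin livers, followed by Mndal with 0.872 ± 0.361 and 0.664 ± 0.070. In the vehicle livers each neighbour in the order overlapped with the next from Ifi204 down to Ifi209. Ifi204 thus stood at rank 1 in both liver groups and at rank 7 in both groups of the line, and 14.3% of its 150-base exon stretches also occur elsewhere on chromosome 1, mostly in Ifi211.

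Levels of other cell types' markers were examined in the same libraries, and none of them was called in the liver. In whole tissue, fewer cells of a type and less RNA per cell cannot be told apart. The summed B cell markers ran from 3.69 to 4.25 CPM in the vehicle livers and from 1.25 to 2.85 in the esculetin livers, with all 4 markers detected, and the summed monocyte and neutrophil markers from 3.01 to 3.31 against 1.36 to 2.59, with all 5 detected. The summed macrophage markers ran from 148 to 189 CPM against 151 to 162, with 5 of the 6 fitted markers below 0 in log2 fold change. Lyz2 held the largest part of that sum (72.1 ± 17.3 against 77.8 ± 2.29 CPM). Adgre1 (log2 fold change -0.31), Cd68 (-0.50), Csf1r (-0.28) and Spi1 (-0.31) each had all esculetin livers below all vehicle livers. The Kupffer cell marker Marco (-0.77) showed the same, and such a separation was seen in 7.95% of all fitted liver genes. Over the 5 Kupffer cell markers the median log2 fold change was -0.098, with 4 below 0 and 1 above. The summed Kupffer cell markers ran from 281 to 328 CPM against 258 to 295, and those of T and NK cells from 2.12 to 2.51 against 2.2 to 2.47. Their part in the lower values of Ifi203, Ifi209, Ifi213 and Aim2 was not tested.

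**Figure D4:**
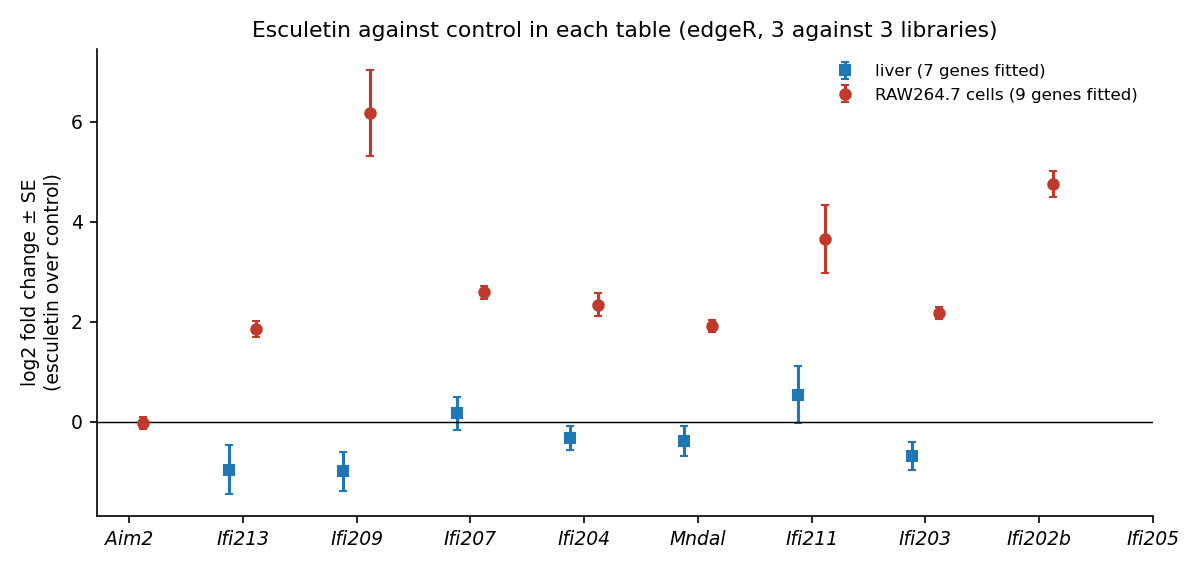
Log2 fold change of esculetin over control with its standard error (edgeR, 3 against 3 libraries), for the liver (blue squares, 7 genes fitted) and RAW264.7 cells (red circles, 9 genes fitted), in chromosomal order. The liver values lie between -0.997 and 0.54 and none was called, and the values of the cells lie between 1.85 and 6.17 apart from Aim2 at -0.028. The value of Ifi209 in the cells depends on the prior count, since its solvent libraries held 1 count in all.

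Reads of near-identical copies set a limit on single genes. Over coding sequence, Ifi204 and Ifi211 were identical at 95.6% of the bases of the shorter sequence. Ifi205 was identical to Ifi211 at 94.7% and to Ifi204 at 90.7%, and Mndal to Ifi211 at 84.9% and to Ifi205 at 84.7%. Ifi207 was nearest to Ifi204 (81.7%) and Ifi203 to Ifi207 (81.0%). Ifi202b was nearest to Ifi204 (72.4%), Ifi209 to Ifi203 (71.6%), Aim2 to Ifi203 (61.1%) and Ifi213 to Ifi205 (60.3%). Of the exon stretches of 150 bases in Ifi211, 55.1% occurred elsewhere on chromosome 1, mostly in Ifi205 and Ifi204. The share was 14.3% in Ifi204, 9.77% in Ifi205 and 8.96% in Ifi209. It was at most 3.49% in Mndal, Ifi203, Ifi213, Ifi207, Aim2 and Ifi202b. Of the stretches of 75 bases, 63.1% occurred elsewhere for Ifi211, 25.4% for Ifi209 (all in Ifi214), 16.7% for Ifi205, 15.4% for Mndal, 15.1% for Ifi203, 12.4% for Ifi213 and 3.75% for Ifi207. The values of Ifi211, Ifi204, Ifi209 and Ifi205 are therefore uncertain as values of single genes. Mndal was the only member whose exons overlapped with those of another listed gene, the pseudogene Gm38050, by 118 bases, and Gm38050 held no count. The line was counted on the genome of another strain, and the effect of this on single members was not tested.

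The listed neighbours with a count in the line were near 0 with solvent and higher with esculetin. The pseudogene Ifi203-ps had 0.663 ± 0.331 CPM with solvent and 5.42 ± 0.559 with esculetin (SD, n = 3; log2 fold change 3.01 ± 0.33). Ifi208 held 1 count in all solvent libraries and 21 in all esculetin libraries, a ratio of 26.5 with a counting interval of 4.27 to 1097. Ifi214 held 0 and 8 counts, at least 3.37-fold higher against 3 counts over the group and Ifi206 held 0 and 5 (at least 2.11-fold higher). Gm18445, a pseudogene next to Ifi202b that was named after its values were seen, had 0.384 ± 0.299 CPM with solvent and 13.7 ± 6.34 with esculetin, a log2 fold change of 5.11 ± 0.48, and no count in the liver. Gm7871, another unlisted pseudogene of the interval, held 2 counts over the solvent libraries and 0 over the esculetin libraries. Exon stretches of 75 bases from Ifi213 recur within Ifi208 and Ifi206, and those from Ifi209 within Ifi214. Some from Ifi203 recur within Ifi203-ps, and some from Ifi207 within Gm18445. Whether counts of these neighbours came from reads of the members was not tested. Cadm3 and Ackr1, which flank the family and do not belong to it, had no count in the line. In the liver they stood at 7.01 ± 0.864 CPM against 6.84 ± 0.993 and at 1.64 ± 0.231 against 1.46 ± 0.694, and neither was called (edgeR, adjusted p = 0.97 and 0.93). Of the other neighbours in the liver, Ifi208 had 1.18 ± 0.689 CPM against 0.706 ± 0.392 (edgeR, adjusted p = 0.74), Ifi206 had 0.588 ± 0.0998 against 0.387 ± 0.0656 and was not fitted, Ifi203-ps had 0.229 ± 0.188 against 0.116 ± 0.0884, and Ifi214 held 2 counts in the vehicle libraries and 0 with esculetin.

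The genes that act with Aim2 and around DNA sensing were described from 4 lists of 48 genes, all present in both tables. In the cells 24 of the 41 fitted genes were called higher and 8 lower, beside 28.7% and 29% of all fitted genes, again without a reading, since these are the libraries in which Ifi202b was picked. The study's criterion on limma-voom was met by 20 of them in either direction, beside 38% of all fitted genes. In the liver 0 of 42 were called (edgeR), with 3 at an unadjusted p-value under 0.05 (Irf7, Stat2 and Irf1), and DESeq2 and limma-voom called none.

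Of the inflammasome genes, 8 of 9 fitted genes were called higher in the cells, beside 28.7% of all fitted genes. The largest were Nlrp3, another inflammasome sensor (32.7 ± 2.94 to 140 ± 31.3 CPM, log2 fold change 2.10 ± 0.15), and Casp4, the caspase that senses bacterial lipopolysaccharide (4.31 ± 0.806 to 17.5 ± 3.53 CPM, log2 fold change 2.02 ± 0.20). Casp1 stood at 17.4 ± 2.13 CPM with solvent and 30.6 ± 1.79 with esculetin (log2 fold change 0.81 ± 0.12), and Ninj1, which ruptures the membrane of dying cells, at 83.8 ± 7.01 and 124 ± 2.51 (log2 fold change 0.57 ± 0.09). The adaptor Pycard, named here for its low level, had 0.209 ± 0.0964 CPM with solvent and 0.229 ± 0.182 with esculetin, against 0.782 ± 0.0216 and 1.04 ± 0.217 in the liver. RAW264.7 cells are known to lack it. Il1b held 2 counts over the solvent libraries and 7 over the esculetin libraries, a ratio of 4.42 with a counting interval of 0.842 to 43.6, and Mefv none. In the liver Ninj1, Ripk3, Pycard and Il18 had the smallest p-values of this list, and their log2 fold changes lay between -0.68 and 0.41 with adjusted p-values of 0.67 to 0.81 (edgeR).

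Of the other DNA sensors and the genes of Sting1 signalling, 9 of 14 fitted genes were called higher in the cells and 3 lower. The shares over all fitted genes were 28.7% and 29%. Cxcl10, a chemokine made in response to interferon, went from 0.533 ± 0.148 to 10.3 ± 5.67 CPM (log2 fold change 4.28 ± 0.43), Zbp1, a sensor of Z-form nucleic acid, from 0.493 ± 0.0802 to 5.14 ± 2.81 (log2 fold change 3.37 ± 0.48) and the kinase Ikbke from 4.92 ± 0.853 to 12.0 ± 1.19 (log2 fold change 1.28 ± 0.17). Mre11a, a nuclease of DNA repair, went from 114 ± 13.1 to 58.4 ± 5.62 CPM (log2 fold change -0.97 ± 0.11). Cgas and Tlr9 are named here as the other genes called lower. Cgas went from 34.0 ± 1.61 to 24.0 ± 3.00 CPM (log2 fold change -0.50 ± 0.12). Tlr9 went from 6.27 ± 0.647 to 3.34 ± 0.826 CPM (log2 fold change -0.92 ± 0.22). Sting1 itself was not called (log2 fold change 0.26 ± 0.13). Ifnb1, the gene of interferon beta, held no count in the 3 solvent libraries and 32 counts over the esculetin libraries, at least 13.5-fold higher against 3 counts over the group, and no count in the liver. In the liver Irf7 stood at 69.3 ± 7.40 CPM with vehicle and 55.3 ± 5.50 with esculetin (log2 fold change -0.33 ± 0.13, edgeR, adjusted p = 0.52), and Tbk1, Cxcl10 and Ikbke had adjusted p-values of 0.62 to 0.78.

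Of the nucleases and other brakes on DNA sensing, 1 of 7 fitted genes was called higher in the cells and 5 lower. The shares over all fitted genes were 28.7% and 29%. Banf1, which coats DNA and keeps Cgas off it, went from 140 ± 12.3 to 45.2 ± 1.08 CPM (log2 fold change -1.63 ± 0.09), Rnaseh2a, a subunit of ribonuclease H2, from 38.1 ± 2.79 to 16.2 ± 1.54 (log2 fold change -1.24 ± 0.12) and Samhd1, which breaks down deoxynucleotides, from 141 ± 8.61 to 88.1 ± 10.0 (log2 fold change -0.68 ± 0.10). Adar, which edits double-stranded RNA, was the one called higher, from 145 ± 7.21 to 210 ± 34.4 CPM (log2 fold change 0.54 ± 0.11). Trex1, the main cytosolic DNA exonuclease, was listed at 0 in all 12 libraries. Whether its reads were lost in counting was not examined, so the 0 is not read as a lack of its RNA. In the liver Adar, Dnase2a, Enpp1 and Rnaseh2b had the smallest p-values, with log2 fold changes of -0.29 to 0.34 and adjusted p-values of 0.64 to 0.71 (edgeR).

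Of the interferon receptor signalling genes, 6 of 11 fitted genes were called higher in the cells and none lower. The shares over all fitted genes were 28.7% and 29%. Irf9 went from 35.8 ± 2.98 to 69.5 ± 10.7 CPM (log2 fold change 0.96 ± 0.12) and Stat2 from 64.7 ± 3.96 to 107 ± 26.3 (log2 fold change 0.72 ± 0.15), both subunits of the complex that binds the ISRE. Usp18, which damps the receptor, went from 6.22 ± 1.13 to 31.4 ± 16.5 CPM (log2 fold change 2.34 ± 0.35) and the kinase Jak1 from 163 ± 5.02 to 241 ± 25.6 (log2 fold change 0.56 ± 0.09). In the liver 10 of 12 fitted genes had a log2 fold change below 0, beside 53.5% of all fitted genes. Stat2 had 63.5 ± 10.3 CPM with vehicle and 45.2 ± 1.55 with esculetin (log2 fold change -0.49 ± 0.13, edgeR, adjusted p = 0.30), and Irf1 had 25.7 ± 3.52 against 17.5 ± 3.03 (log2 fold change -0.56 ± 0.17, edgeR, adjusted p = 0.34). Usp18 and Irf9 had adjusted p-values of 0.62 and 0.64. The groups of Stat2, Irf1, Usp18 and Irf9 did not overlap, with esculetin lower in each, and the same held for Ifngr1. Such a separation was seen in 7.95% of all fitted liver genes. It tends to go with a small p-value, by which Stat2, Irf1, Usp18 and Irf9 were named, so nothing is read from it.

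**Figure D5:**
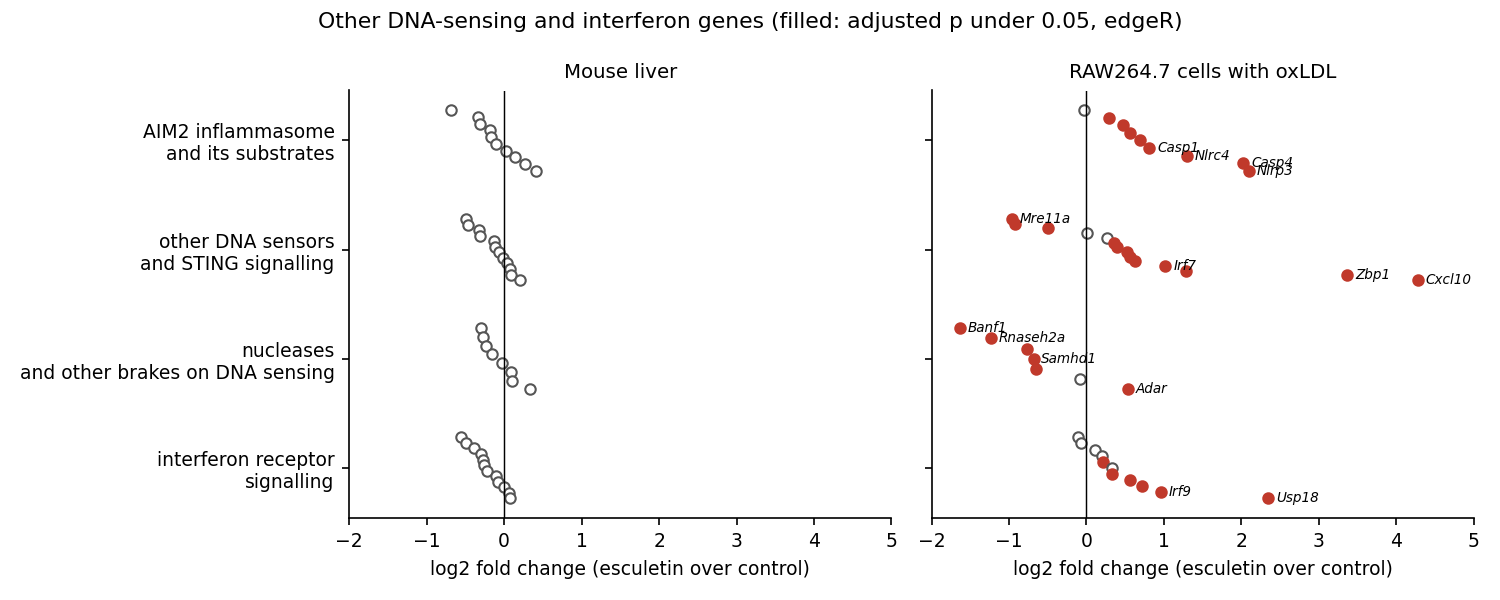
Log2 fold change of esculetin over control for the fitted genes of 4 lists (rows), in the liver (left) and RAW264.7 cells (right). Each circle is a gene and filled circles passed an adjusted p-value of 0.05 (edgeR). No liver circle is filled. In the line, the nucleases and other brakes hold 5 filled circles below 0 and 1 above, while the inflammasome list holds 8 above and none below. Over all fitted genes of the line, 28.7% were called higher and 29% lower.

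The genes whose profile over the 12 libraries lay nearest to that of Ifi202b, by Euclidean distance of log2 CPM centred within each table among 13202 genes, were Gm42743 (distance 0.781), Slc35f1 (1.12), Oasl2 (1.12), C3ar1 (1.15) and Ccl3 (1.41). Oasl2, an interferon-induced gene of the oligoadenylate synthetase family, went from a mean of 1.16 to 28.2 CPM in the cells, C3ar1, a complement receptor, from 4.84 to 81.6, and the chemokine Ccl3 from 78.8 to 2009. None of the 5 lies on chromosome 1. Nearest to Aim2 were Tchp (0.991), Ninl (1.06), 2700099C18Rik (1.08), BC002059 (1.09) and Tnfrsf25 (1.10), of which Tchp had a log2 fold change of -0.19 in the cells and -1.22 in the liver. The nearest gene to Aim2 lay farther from it than the nearest gene to Ifi202b lay from Ifi202b, and nothing is read from this. Ifi202b held no liver count, so its profile varied only in the cell libraries in which it was picked. Its nearest genes are therefore a description. Aim2 held 1 to 15 counts in each liver library, so counting error enters its distances.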

How the data were processed

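The authors deposited whole-number read counts for each gene, in 1 table of 6 liver libraries and 1 table of 6 RAW264.7 libraries, and 0 columns were left unused. According to the study, paired-end reads were mapped with HISAT 2.2.1 to GRCm39 and counted with featureCounts. Whether counting used strand, how multi-mapped reads were treated and which annotation was used are not given in the sources used here. The submitters' processing notes also list mm10.

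Symbols, exons and coordinates came from GENCODE M39 (GRCm39), in which 54749 of 55357 identifiers matched. The liver and the cell table were fitted apart by edgeR 4.0.16 in R 4.3.3, with quasi-likelihood tests (filterByExpr, TMM factors, treatment as the only term, two-sided), with Benjamini-Hochberg adjustment over all fitted genes and a call under 0.05. An SE was obtained by dividing the log2 fold change by the root of its F statistic. RPKM used the union of annotated exons. The alternatives were RLE, upper-quartile and library-size scaling, no filter and a filter at 1 CPM, DESeq2 1.42.0, limma-voom (limma 3.58.1), robust dispersion, the study's criterion (unadjusted p-value under 0.05, fold change over 1.5), a replicate block and leaving out each library. The fits were tested on simulated data. An exact permutation test of 3 against 3 libraries cannot go below 0.1.

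The members and the gene lists were chosen with earlier results of these data known. The named genes were the 10 members, up to 4 genes per list with the smallest p-values in each table, neighbours with a count, and the 5 nearest profiles to Ifi202b and to Aim2. Coding sequences were aligned in place of proteins, and promoters were read from GRCm39 with canonical GENCODE starts. The symbols Ifi202c, Pydc3, Pydc4, Pydc5, Pyhin1 and Mnda of the neighbour list matched no identifier and were not analysed here. Tables and figures were made with Python 3.11.15, pandas 2.3.3, scipy and matplotlib 3.10.9. Of the listed genes, 2 are not reported here and enter no list count.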

Additional observations from a re-analysis of the deposited data

Results flagged for a closer look

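In 3 genes every esculetin library lay below every vehicle library in the liver, as in 7.95% of all fitted liver genes. In RAW264.7 cells every esculetin library of the same genes lay above every solvent library, as in 31% of all fitted cell genes. The share of genes with both was not counted. Ifi203 had a log2 fold change of -0.68 in the liver and 2.17 in the cells. Ifi209 had -0.997 and 6.17, with 1 count over its solvent libraries, and Ifi213 had -0.96 and 1.85. The liver value was -0.41 for Ifi203 without vehicle replicate 1 and -0.39 for Ifi213 without vehicle replicate 3. The difference between the effects was not tested, none of the 3 was called in the liver, and the liver and the line differ in tissue, strain, dose and time of treatment, which cannot be told apart here.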

How the results depend on the processing

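No liver member was called under any alternative (5 to 9 fitted) but the study's criterion on limma-voom, which 2 of 7 met, beside 3.89% of all fitted genes. In the cells 6 members were called with a filter at 1 CPM, under which Ifi209 and Ifi211 were not fitted, and 9 without a filter. The count of pathway genes called in the liver was 0 except without a filter on low counts, where it was 2 (Stat2 and Irf1), and that in the cells was 32 against 20 under the study's criterion, met by 38% of all fitted genes. Of the log2 fold changes of liver members, 101 of 103 kept their sign: that of Ifi207 was -0.072 without vehicle replicate 2 (0.41 without vehicle replicate 1) and that of Mndal 0.0086 without vehicle replicate 1 (-0.57 without vehicle replicate 3), and the cause was not tested. The summed family rose by 1.71 on the log2 scale in the cells and by 1.49 without Ifi202b. The share of the summed member RPKM held by the leading gene was here taken in each library and averaged, not taken from group means. With the exon length of the longest transcript it was 31.2% for Ifi204 in the esculetin livers (29.3% with the exon union). It was 47.6% for Aim2 in the solvent cells (40.8%) and 25.2% for Ifi202b in the esculetin cells (32.7%). The leading gene was the same in each. The sources used here do not pair libraries of the same number, and a shared batch was not tested. Same-numbered libraries correlated at 0.140, -0.0053 and 0.103 in the liver and 0.165, -0.030 and 0.080 in the cells. Vehicle and solvent replicates 1 and 3 correlated best with the esculetin library of their own number. Replicate 2 of each correlated best with esculetin replicate 3 (0.0885 in the liver and 0.108 in the cells). With the replicate block 0 liver members and 8 cell members were called, as without it, while the calls over all genes went from 11 to 123 in the liver. Depth limits Ifi202b, Ifi205 and Aim2 in the liver, and Ifi205 and Ifi209 in the cells.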
